A study of Mus musculus with 13 samples.

Results

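The genes examined here act in heparan sulfate editing or are proteoglycans. They are 10 named genes, Sulf1, Sulf2, Ndst1, Sdc1, Sdc3, Sdc4, Gpc1, Cspg4, Cspg5 and Vcan, of 52636 listed, and each was found once by its symbol. They were selected on the genotype comparison itself, with the lower Sulf2 and Cspg4 counts of Trem2-deficient cells already known. The genotype values of these 10 genes are therefore a description, and no test is drawn from them.

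RNA-Seq data came from myeloid cells sorted from the cortex and hippocampus of 13 PS2APP mice, 1 mouse per library. PS2APP mice deposit β-amyloid plaques from transgenes for human amyloid precursor protein and presenilin 2, which mice of both groups carried. The PS2APP;Trem2wt group had 7 mice (5 females, 2 males) with intact Trem2, and the PS2APP;Trem2ko group had 6 mice (5 females, 1 male) with a null allele in every cell, not only in microglia. All mice were 14 to 15 months old, and there was no group without the transgenes. The sort kept CD11b+ CD45+ cells that were Ly6g- and Ccr2-, a gate that holds microglia and can also hold macrophages around vessels.

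Heparan sulfate and chondroitin sulfate are long sugar chains that are built onto core proteins in the Golgi. Enzymes add sulfate groups at defined positions, and the resulting pattern decides which growth factors, lipoproteins and matrix proteins bind the chain. The sulfatases Sulf1 and Sulf2 then remove 6-O-sulfate from finished heparan sulfate outside the cell. Syndecans (Sdc) cross the membrane, glypicans (Gpc) are held by a lipid anchor, and versican (Vcan) is secreted into the matrix. Cspg4, also called NG2, is a membrane chondroitin sulfate proteoglycan best known from oligodendrocyte precursors and pericytes.

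The DNA before the start sites of 3 of these genes is shown because Sulf2 and Cspg4 carry the genotype difference and Sdc3 is the most abundant of the 10. Each line is the 250 bases upstream of a RefSeq transcript start on GRCm38.p6, read 5′ to 3′ on the gene's strand. Capitals mark the GC box GGGCGG, searched on both strands. The Sulf2 stretch is chr2:166155684-166155933 on the minus strand, the Cspg4 stretch chr9:56864854-56865103 on the plus strand, and the Sdc3 stretch chr4:130792287-130792536 on the plus strand.
Sulf2: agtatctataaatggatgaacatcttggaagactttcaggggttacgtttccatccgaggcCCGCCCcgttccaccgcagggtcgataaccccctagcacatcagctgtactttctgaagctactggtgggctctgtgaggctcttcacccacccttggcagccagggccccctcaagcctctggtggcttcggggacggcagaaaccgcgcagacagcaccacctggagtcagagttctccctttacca
Cspg4: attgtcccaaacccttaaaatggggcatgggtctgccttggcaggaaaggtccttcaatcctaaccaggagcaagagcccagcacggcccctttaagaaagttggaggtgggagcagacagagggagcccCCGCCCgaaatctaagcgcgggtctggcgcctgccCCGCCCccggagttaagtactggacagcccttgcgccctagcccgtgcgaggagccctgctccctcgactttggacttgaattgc
Sdc3: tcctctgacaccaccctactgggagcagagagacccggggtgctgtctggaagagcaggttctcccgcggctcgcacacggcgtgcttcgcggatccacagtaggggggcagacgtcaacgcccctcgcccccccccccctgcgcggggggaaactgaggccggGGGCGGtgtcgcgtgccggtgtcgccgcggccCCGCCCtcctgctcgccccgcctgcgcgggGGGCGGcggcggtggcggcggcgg

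The Sulf2 stretch held 1 GC box, with its first base at -189 from the start, the Cspg4 stretch 2, at -120 and -85, and the Sdc3 stretch 3, at -86, -54 and -24. Of 32544 RefSeq promoter windows of this length, 33% held a GC box. Neither Sulf2 nor Cspg4 held the PU.1 core GAGGAA (23.4% of windows), the E-box CACGTG (6.03%) or the AP-1 site TGANTCA (6.73%), all searched on both strands. GC content was 57.2% for Sulf2, 60.4% for Cspg4 and 76.4% for Sdc3, where the median window had 52.4%. These matches describe the letters only. A second RefSeq start of Sulf2 held none of the 4 motifs, and 6 of the 10 genes had an entry.

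Library depth and cell identity were examined before the genes. Each mouse had 26120961 to 120569609 counts on genes, so that 3 counts, taken as the limit of detection, equal 0.0249 to 0.115 CPM, counts scaled by the library total. This limit covers counting error only. Trem2 was at 818 to 1244 nRPKM in PS2APP;Trem2wt mice and at 0.393 to 2.29 in PS2APP;Trem2ko mice. The unit nRPKM is the authors' RPKM, read counts scaled by gene length and library size, adjusted by a size factor, and it allows levels of different genes to be compared. The summed nRPKM of 7 microglia markers was 12167 to 14815 in PS2APP;Trem2wt and 12831 to 14156 in PS2APP;Trem2ko mice. No marker of the 12 cell types examined passed the genotype test.

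The enzymes that shape heparan sulfate after its synthesis differed widely in level. Sulf2 (ENSMUSG00000006800, chromosome 2, 166073089 to 166155663) was measured at 6.63, 8.001, 8.68, 10.04, 10.12, 11.2 and 18.5 nRPKM in the PS2APP;Trem2wt mice. In the PS2APP;Trem2ko mice it was at 2.51, 2.80, 2.88, 3.18, 3.42 and 4.01 nRPKM. The genotypes did not overlap, PS2APP;Trem2ko mice being the lower, and 1 PS2APP;Trem2wt female, replicate 3, stood above the others. The means were 10.5 ± 3.85 (SD, n = 7) and 3.13 ± 0.530 (SD, n = 6) nRPKM. On the counts, the log2 fold change, PS2APP;Trem2ko over PS2APP;Trem2wt, was -1.74 (SE 0.20), a 3.34-fold lower level. Without the high female it was -1.54 (SE 0.14). Of its 50-base transcript words, 1.79% also occur elsewhere, most often in the opposite-strand gene Ncoa3.

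Sulf1 (ENSMUSG00000016918, chromosome 1, 12692277 to 12861192), the second extracellular sulfatase, was close to the limit of detection. It had 0 to 25 counts in PS2APP;Trem2wt and 0 to 19 counts in PS2APP;Trem2ko mice, with 3 and 1 mice at 0. Its highest nRPKM was 0.0597, and it did not pass the filter on low counts. A genotype difference in Sulf1 was not detectable at this depth.

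Ndst1 (ENSMUSG00000054008, chromosome 18, 60684494 to 60748650) replaces acetyl by sulfate groups on the growing chain, the step that opens the way for later sulfation. Its lowest, median and highest values were 4.29, 5.40 and 7.10 nRPKM in PS2APP;Trem2wt mice and 3.80, 5.17 and 5.46 in PS2APP;Trem2ko mice. The ranges overlapped, with a log2 fold change of -0.24 (SE 0.12). Its isozyme Ndst2 exceeded it in all 13 mice, by a median factor of 5.25 in PS2APP;Trem2wt and 6.40 in PS2APP;Trem2ko mice on the nRPKM scale.

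**Figure D1:**
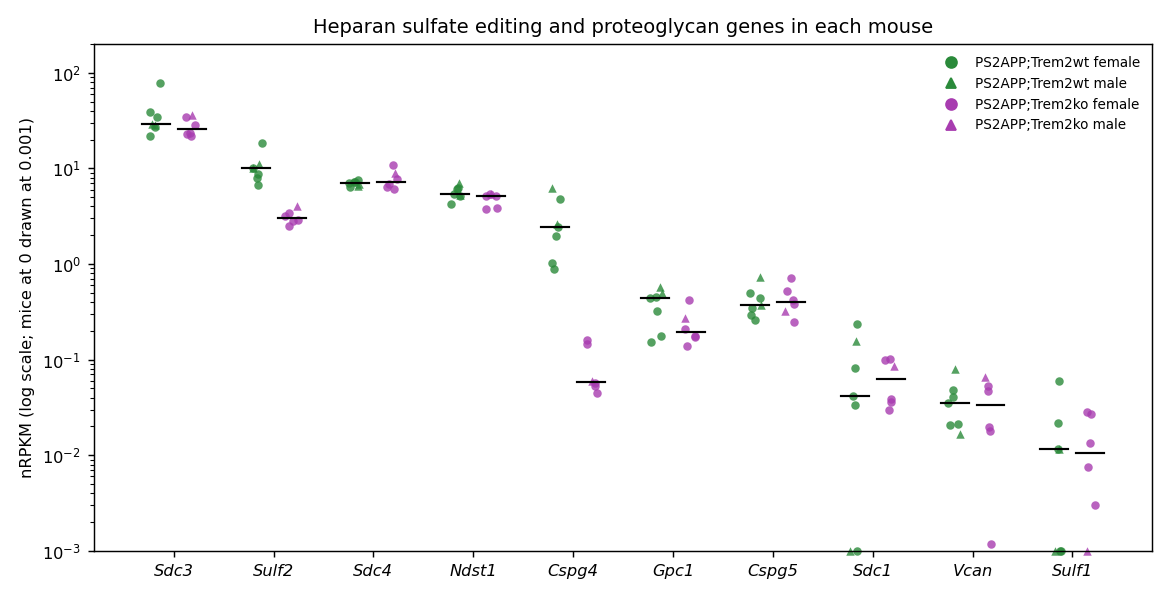
Level of the 10 genes in each mouse, as nRPKM on a log axis, with 1 point per mouse, the genotypes side by side and a bar at the median. Values of 0 are drawn at 0.001. The genotypes are apart for Sulf2 and Cspg4 and overlap for the other 8 genes.

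Cspg4 had the widest genotype difference among these core proteins and enzymes. Cspg4 (ENSMUSG00000032911, chromosome 9, 56865033 to 56899870) was at 0.889, 1.03, 1.97, 2.42, 2.65, 4.84 and 6.29 nRPKM in PS2APP;Trem2wt mice. In PS2APP;Trem2ko mice it was at 0.0443, 0.0535, 0.0572, 0.0592, 0.145 and 0.162 nRPKM. The genotypes did not overlap. Relative to the mean, the PS2APP;Trem2wt mice spread more widely among themselves than for Sulf2, although less widely in nRPKM. The means were 2.87 ± 1.997 (SD, n = 7) and 0.0869 ± 0.0522 (SD, n = 6) nRPKM. The log2 fold change on the counts was -4.99 (SE 0.52), a 31.8-fold lower level. The values rest on 311 to 4053 counts per PS2APP;Trem2wt mouse and 23 to 235 per PS2APP;Trem2ko mouse, all above the limit of detection.

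Because Cspg4 is a known gene of oligodendrocyte precursors and pericytes, markers of both were read beside it. The 8 precursor markers summed to 0.466 to 1.11 nRPKM in PS2APP;Trem2wt and 0.634 to 1.34 in PS2APP;Trem2ko mice, and each of the 8 stayed below 1 nRPKM in every mouse. Olig1 was the highest of them, and Pdgfra, which defines these cells, did not exceed 0.101 nRPKM. The 7 pericyte markers, led by Vtn, summed to 0.776 to 6.43 nRPKM in PS2APP;Trem2wt and 0.813 to 4.24 in PS2APP;Trem2ko mice. The genotypes overlapped in both sums, and the part of precursors and pericytes in the level of Cspg4 was not tested. The PS2APP;Trem2wt male with the most Cspg4, replicate 2, also had the highest pericyte, endothelial, fibroblast, monocyte and neutrophil sums of all mice. In the remaining lists another mouse was highest, but among PS2APP;Trem2wt mice this male also had the highest precursor sum, 1.11 nRPKM. Without this male the log2 fold change of Cspg4 was -4.68. In sorted bulk cells, fewer cells that express a gene and less RNA per cell cannot be told apart.

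**Figure D2:**
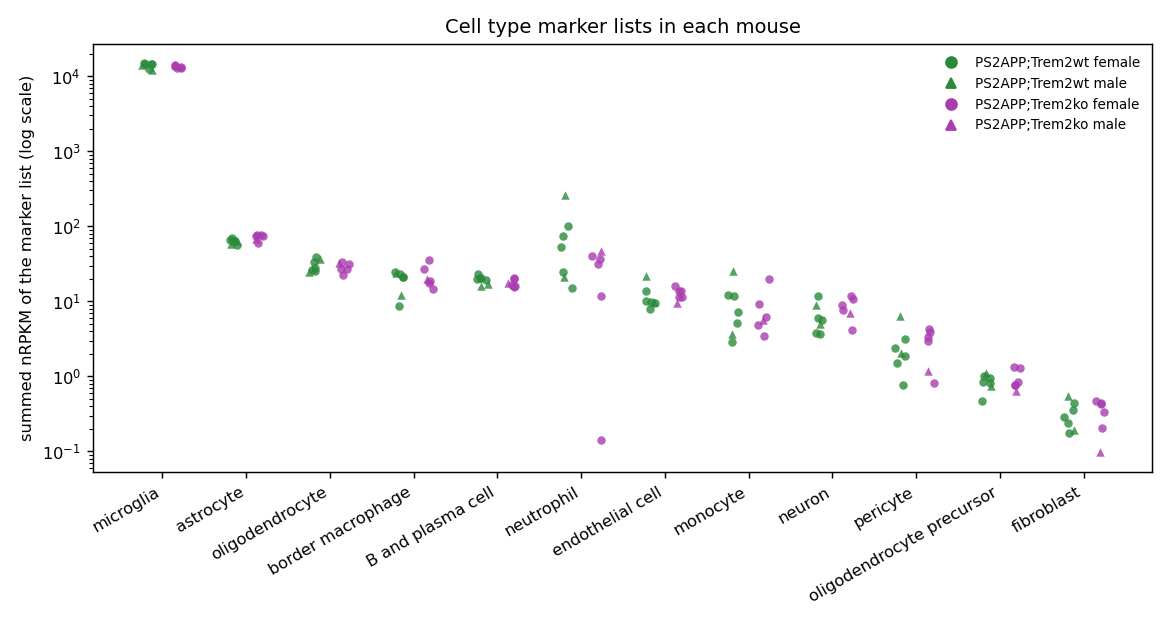
Summed nRPKM of 12 cell type marker lists in each mouse, on a log axis, with 1 point per mouse and the genotypes side by side. Microglia markers are far above the other lists, and the genotypes overlap in every list.

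Neutrophil markers, none of them called, had a median log2 fold change of -1.60 and summed to 14.9 to 264.5 nRPKM in PS2APP;Trem2wt and 0.143 to 46.3 in PS2APP;Trem2ko mice, and monocyte markers to 2.85 to 25.1 and 3.50 to 20.1. Border macrophage markers summed to 8.64 to 24.96 and 14.5 to 35.5 nRPKM. The part of these cells in the levels of Sulf2 and Cspg4 was not tested.

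The syndecans were led by Sdc3 (ENSMUSG00000025743, chromosome 4, 130792537 to 130826319), the syndecan best known from the nervous system. Its lowest, median and highest values were 21.9, 29.5 and 78.4 nRPKM in PS2APP;Trem2wt mice and 22.1, 26.1 and 36.4 in PS2APP;Trem2ko mice. The log2 fold change of -0.40 (SE 0.25) became -0.11 (SE 0.15) without PS2APP;Trem2wt replicate 3, the female that was also highest for Sulf2. Of the 50-base words of Sdc3 transcripts, 5.36% also occur elsewhere, most often in a gene on the opposite strand, so a small part of its count is uncertain.

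Sdc4 (ENSMUSG00000017009, chromosome 2, 164424247 to 164443887), a widely expressed syndecan of focal adhesions, was at 6.35, 7.03 and 7.61 nRPKM in PS2APP;Trem2wt mice and at 6.05, 7.25 and 10.8 in PS2APP;Trem2ko mice, with a log2 fold change of 0.16 (SE 0.12). Sdc3 exceeded Sdc4 in all 13 mice, by a median factor of 4.34 in PS2APP;Trem2wt mice. Sdc1 (chromosome 12, 8771323 to 8793715), the syndecan of epithelia and plasma cells, had 0 to 76 counts in PS2APP;Trem2wt and 6 to 45 in PS2APP;Trem2ko mice. Its log2 fold change of -0.27 had an SE of 0.82.

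The remaining core proteins were low. Gpc1 (chromosome 1, 92831645 to 92860779), a glypican of the adult brain, was at 0.155, 0.441 and 0.578 nRPKM in PS2APP;Trem2wt and 0.139, 0.193 and 0.418 in PS2APP;Trem2ko mice, with overlapping ranges and a log2 fold change of -0.69 (SE 0.34). Of its transcript words, 18.005% also occur elsewhere, most often in the opposite-strand gene Ankmy1, so its level is uncertain. Cspg5 (chromosome 9, 110243783 to 110262576), also called neuroglycan C and typical of neurons and glia, had medians of 0.373 and 0.400 nRPKM and a log2 fold change of 0.05 (SE 0.26). Vcan (chromosome 13, 89655312 to 89742509), the large hyaluronan-binding proteoglycan versican, stayed at or below 0.0794 nRPKM, with 11 to 41 counts in PS2APP;Trem2wt and 1 to 147 in PS2APP;Trem2ko mice. Its log2 fold change was -0.11 (SE 0.58).

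In all, 9 of the 10 genes passed the count filter. Of these, 2, Sulf2 and Cspg4, were called lower by the quasi-likelihood test of edgeR (adjusted p at or under 0.05), and none was called higher, also at an unadjusted p under 0.05, with voom+limma and with DESeq2. Among all 17086 genes tested, 1.53% were lower and 0.503% higher. Both were also at least 2-fold lower, as were 0.691% of all genes. In these 2 genes all PS2APP;Trem2ko mice lay below all PS2APP;Trem2wt mice, as in 1.22% of all genes, and in none did they all lie above, as in 0.421%. The log2 fold change was negative for 7 of the 9, among them Sdc1 and Vcan, whose sign changed in some alternatives, with a median of -0.27 where the median of all genes was 0.00. Since the genes were chosen with this comparison known, nothing is read from these shares.

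The order of the levels is given as a description, since the same PS2APP;Trem2wt values entered the choice of Sulf2 and Cspg4. By median nRPKM in PS2APP;Trem2wt mice it was Sdc3, Sulf2, Sdc4, Ndst1, Cspg4, Gpc1, Cspg5, Sdc1, Vcan and Sulf1. Differences between neighbours were taken within each mouse on log2(nRPKM), floored at -4. Sdc3 was above Sulf2 in 7 of 7 mice, by 1.77 ± 0.33 (SD), and Sulf2 above Sdc4 in 7 of 7, by 0.52 ± 0.45 (SD). Sdc4 exceeded Ndst1, and Ndst1 exceeded Cspg4, in 6 of 7 mice. Cspg4 was above Gpc1, and Cspg5 above Sdc1, in 7 of 7 mice without overlap. Gpc1 was above Cspg5 in 3 of 7 mice and Sdc1 above Vcan in 4 of 7, so these neighbours did not differ beyond their spread. Vcan was above Sulf1 in 6 of 7 mice by nRPKM. The floor replaced Sulf1 in every mouse and Vcan in nearly all, so the log2 difference cannot order these neighbours.

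In PS2APP;Trem2ko mice the order by median was Sdc3, Sdc4, Ndst1, Sulf2, Cspg5, Gpc1, Sdc1, Cspg4, Vcan and Sulf1. Sulf2 stood behind Sdc4 and Ndst1, and Ndst1 was above Sulf2 in 6 of 6 mice, by 0.62 ± 0.31 (SD) on the log2 scale. Cspg4 stood behind Gpc1, Cspg5 and Sdc1 by median, but Sdc1 was above Cspg4 in only 2 of 6 mice.

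Sex did not enter the choice of the genes. In a fit with genotype and sex, none of the 9 tested genes differed between 10 females and 3 males with edgeR, voom+limma or DESeq2. At the same adjusted threshold, edgeR called 0.0234% of all genes. None of the 9 had an unadjusted p under 0.05 in edgeR. The lowest adjusted p was 0.789, for Gpc1, with a log2 difference of 0.63 (SE 0.37), males over females. For Sulf2 this difference was 0.19 (SE 0.23) and for Cspg4 0.56 (SE 0.52). With 3 males, differences of this size were not resolved.

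The rest of the pathway was read from lists of 107 other genes for the synthesis, sulfation, degradation, core proteins and ligands of these chains. Of the 81 that passed the filter, edgeR called 6 lower in PS2APP;Trem2ko mice, which is 7.41%, and none higher, under the same threshold, where 1.53% of all genes were lower and 0.503% higher. At an unadjusted p under 0.05, 13 were lower and 1 higher, where 7.56% of all genes were lower and 7.29% higher, and voom+limma and DESeq2 also called none higher. The median log2 fold change was -0.07, with 52 genes negative and 29 positive (64.2% negative, against 49.3% of all genes). In 5 of the 81, all PS2APP;Trem2ko mice lay below all PS2APP;Trem2wt mice in normalized CPM, as in 1.22% of all genes. The lists too were chosen with earlier results of these data known, so these shares are a description and not an independent test.

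**Figure D3:**
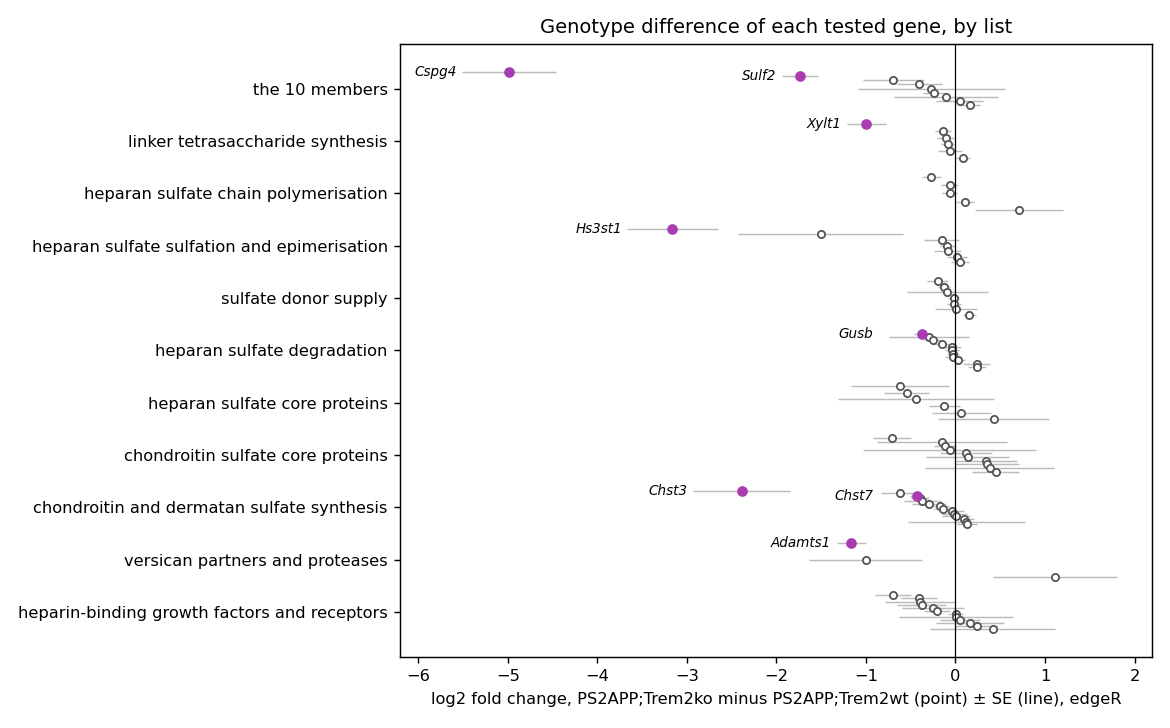
Log2 fold change of each tested gene, PS2APP;Trem2ko over PS2APP;Trem2wt, on the horizontal axis, by pathway list. Bars are ± 1 SE, and filled, named points are those edgeR called (adjusted p at or under 0.05). The named genes all lie left of 0, from Gusb at -0.37 to Cspg4 at -4.99.

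Of the enzymes that sulfate and epimerise heparan sulfate, 1 of 7 tested was lower. Hs3st1 (chromosome 5, 39613935 to 39755475) adds the rare 3-O-sulfate that forms the antithrombin-binding site. It was at 0.810, 1.02, 1.12, 1.65, 1.78, 2.21 and 2.58 nRPKM in PS2APP;Trem2wt mice, and at 0.0222, 0.0351, 0.146, 0.199, 0.259 and 0.394 in PS2APP;Trem2ko mice. The genotypes did not overlap, and the log2 fold change was -3.16 (SE 0.51, edgeR adjusted p = 0.00294). Its adjusted p was between 1.9e-09 and 0.0324 in the 22 alternative analyses. It had 59 to 509 counts in PS2APP;Trem2wt and 3 to 88 in PS2APP;Trem2ko mice, down to the limit of detection.

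The most abundant enzyme of this list was Ndst2, with a median of 32.5 nRPKM in PS2APP;Trem2wt and 30.2 in PS2APP;Trem2ko mice. Hs6st1, which adds the 6-O-sulfate that Sulf2 removes, had medians of 26.1 and 25.2 nRPKM and a log2 fold change of 0.02 (SE 0.11, edgeR adjusted p = 0.963). The 2-O-sulfotransferase Hs2st1 was lower than Hs6st1 in all 13 mice and had a log2 fold change of -0.09 (SE 0.08, edgeR adjusted p = 0.651). Ndst3, Ndst4, Hs6st2 and Hs6st3 were too low to be tested.

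The enzymes that start and polymerise the chain held 1 lower gene. Xylt1 (chromosome 7, 117380979 to 117673580), which attaches the first xylose to the core protein, was at 1.18 to 2.33 nRPKM in PS2APP;Trem2wt and 0.586 to 1.51 in PS2APP;Trem2ko mice. In 5 of 6 PS2APP;Trem2ko mice it was below every PS2APP;Trem2wt mouse, and the male, replicate 5, overlapped. The log2 fold change was -0.99 (SE 0.22, edgeR adjusted p = 0.0292), and the call held in 6 of 13 fits that left out 1 mouse. Its isozyme Xylt2 was higher than Xylt1 in all 13 mice and had a log2 fold change of -0.06 (SE 0.13, edgeR adjusted p = 0.888).

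The kinase Fam20b, the most abundant gene of the linker list, and the polymerase Ext2, at a median of 35.5 nRPKM in PS2APP;Trem2wt mice, did not pass the test. None of the 5 tested polymerisation genes and none of the 7 genes that supply the sulfate donor passed. Slc35b2, which carries that donor into the Golgi, was at medians of 74.8 and 73.7 nRPKM.

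The lysosomal and extracellular degradation list had 1 lower gene of 11 tested. Gusb (chromosome 5, 129989011 to 130003049), the lysosomal β-glucuronidase, was at 153 to 233 nRPKM in PS2APP;Trem2wt and 131 to 152 in PS2APP;Trem2ko mice. The log2 fold change was -0.37 (SE 0.09, edgeR adjusted p = 0.0354), and the call held in 4 of 13 fits that left out 1 mouse. Heparanase, Hpse, which cuts heparan sulfate chains, varied from 7.93 to 30.3 nRPKM among PS2APP;Trem2wt mice and from 3.01 to 25.01 among PS2APP;Trem2ko mice.

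**Figure D4:**
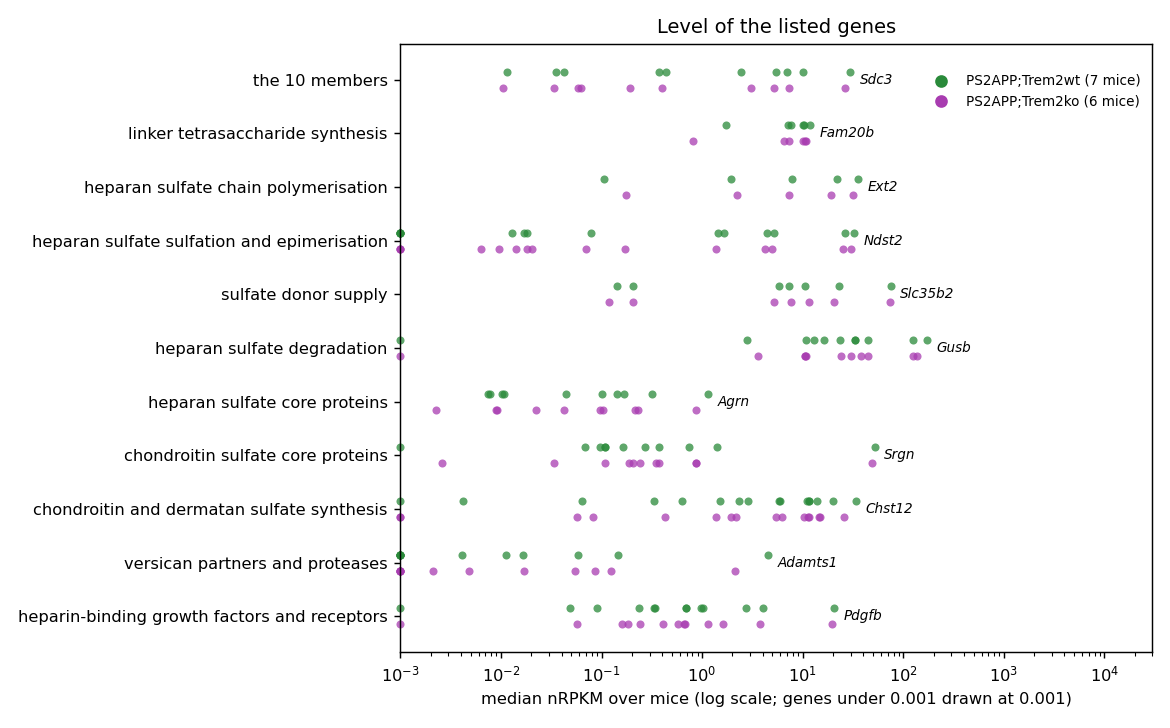
Median nRPKM of the listed genes, 1 left out, over the mice of each genotype, on a log axis, by pathway list, with the most abundant plotted gene of each list named. Medians under 0.001 are drawn at 0.001. The plotted medians of PS2APP;Trem2wt mice reach from undetected genes to Gusb at 171.

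Of the chondroitin and dermatan sulfate enzymes, 2 of 14 tested were lower, both sulfotransferases that act on chondroitin at the 6 position. Chst3 (chromosome 10, 60181532 to 60219260) was at 0.225 to 0.479 nRPKM in PS2APP;Trem2wt and 0.00648 to 0.111 in PS2APP;Trem2ko mice, with a log2 fold change of -2.39 (SE 0.54, edgeR adjusted p = 0.0317). Chst7 (chromosome X, 20059560 to 20097521) was at 17.2 to 22.4 and 13.7 to 17.0 nRPKM, and its log2 fold change was -0.43 (SE 0.08, edgeR adjusted p = 0.00992). The genotypes did not overlap in either gene. Chst3 rested on 56 to 383 counts in PS2APP;Trem2wt and 3 to 114 in PS2APP;Trem2ko mice, down to the limit of detection. Chst7 passed in all 22 alternatives and Chst3 in 16.

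Chst12, a chondroitin 4-O-sulfotransferase and the most abundant of the list, had a log2 fold change of -0.39 (SE 0.10, edgeR adjusted p = 0.0551). It passed in 9 of 22 alternatives, voom+limma and DESeq2 among them.

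None of the other core proteins passed the test, neither the 6 tested heparan sulfate nor the 10 tested chondroitin sulfate core proteins. Agrin, Agrn, was the highest of the former, at medians of 1.14 and 0.878 nRPKM. Serglycin, Srgn, the granule proteoglycan of blood-derived cells, was the highest of the latter, at 51.9 and 49.3 nRPKM. Cd44, the hyaluronan receptor that can carry such chains, had a log2 fold change of -0.70 (SE 0.21, edgeR adjusted p = 0.114). It passed with DESeq2 (adjusted p = 0.0247) and in no other alternative.

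Of the versican partners and proteases, 3 of 12 could be tested. Adamts1 (chromosome 16, 85793827 to 85803113), a secreted protease that cleaves versican, was at 3.33 to 6.08 nRPKM in PS2APP;Trem2wt and 1.48 to 2.51 in PS2APP;Trem2ko mice, without overlap. The log2 fold change was -1.16 (SE 0.16, edgeR adjusted p = 0.000947), and the call held in all 22 alternatives. The hyaluronan synthase Has1 was at 0 in every mouse.

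None of the 12 tested heparin-binding growth factors and receptors passed. The most abundant was Pdgfb, at medians of 20.3 and 19.5 nRPKM, and Fgf1 had a log2 fold change of -0.70 (SE 0.21, edgeR adjusted p = 0.104). Fgf1 passed with DESeq2 (adjusted p = 0.0191) and in the fits without PS2APP;Trem2ko replicate 5 or PS2APP;Trem2wt replicate 6.

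**Figure D5:**
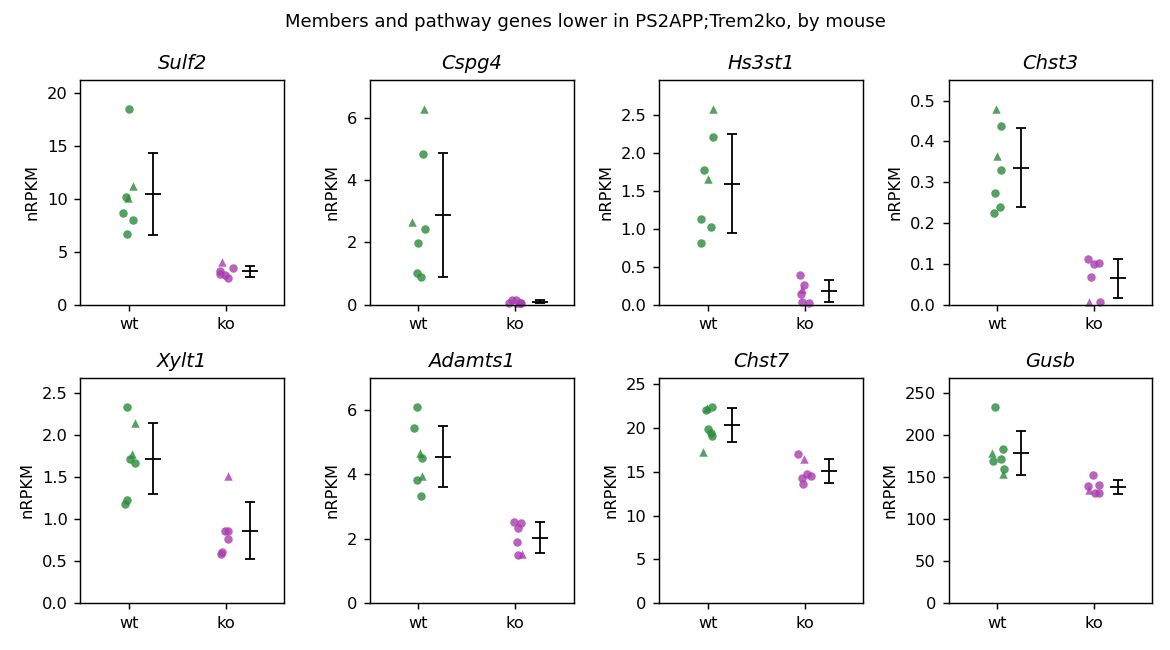
nRPKM in each mouse for Sulf2, Cspg4 and the 6 pathway genes that edgeR called lower, 1 panel per gene with a linear axis from 0. Points are mice and bars the mean ± SD. The genotypes overlap for Xylt1 and for no other of the 8 genes, which were chosen by this same comparison. Of all genes tested, 1.22% had all PS2APP;Trem2ko mice below all PS2APP;Trem2wt mice.

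The genes whose levels ran most like those of Sulf2 and Cspg4 were sought among all genes tested. Likeness was the root mean square difference of log2(nRPKM), floored at -4 and centred on the gene's mean, over the 13 mice, so that it includes the genotype difference that chose the genes. For Sulf2 the nearest were Egr2 (0.190), Fam20c (0.245), Gas2l3 (0.251), Ank (0.251) and Myo1e (0.287), where the median gene was at 0.957. For Cspg4 they were Yipf7 (0.684), Mamdc2 (0.814), Spp1 (0.825), Dcstamp (0.907) and Wif1 (0.930), where the median gene was at 2.54. The floor replaced the lower PS2APP;Trem2ko values of Cspg4, 0.0443 to 0.0592 nRPKM, so its likeness to other genes rests partly on floored values. Sulf2 and Cspg4 were 1.70 apart. These 10 genes all had negative log2 fold changes, from -1.34 for Myo1e to -5.69 for Dcstamp.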

How the data were processed

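RNA-Seq was performed on sorted brain myeloid cells of 7 PS2APP;Trem2wt and 6 PS2APP;Trem2ko mice, grouped by the genotype label. Replicate numbers were assigned here in the order of the sample records, and the labels do not say which mice were processed together. The authors aligned reads to GRCm38 with GSNAP and deposited, per mouse and for 52636 genes, counts of uniquely aligned reads without normalization, and nRPKM, an RPKM adjusted by a size factor. Whether the counting used strand is not given in the sources used here. Gene names and coordinates were taken from GENCODE for 52489 identifiers.

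Counts were filtered with filterByExpr by genotype (17086 genes kept), scaled by TMM and tested with glmQLFit and glmQLFTest (edgeR 4.0.16, R 4.3.3) without a covariate. Benjamini-Hochberg adjustment was over all genes tested, and genes at 0.05 or less were called. The SE of an edgeR log2 fold change was derived from the test, as its absolute value over the square root of the quasi-likelihood F statistic. The common biological coefficient of variation was 0.299. The script was tested on simulated data. No 2 libraries of a genotype agreed within sampling noise (chi-square over its degrees of freedom at least 19.6 in 36 pairs). Deposited RPKM values were used for levels, their order and likeness.

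The members and the lists were chosen with earlier results of these data known. Genes named were the members, the pathway genes called, the most abundant gene of each list and the 5 genes most like Sulf2 and Cspg4. The pathway genes Hpse, Hs6st1, Hs2st1, Xylt2, Cd44, Fgf1, Has1 and the untested isozymes were named after their values were seen. The values of 1 listed gene are not reported here. The 22 alternatives left out each of the 13 mice in turn, kept females only, added sex as a covariate, omitted the filter or required 10 counts in 6 mice, scaled by RLE, or used DESeq2 1.42.0, voom+limma or limma 3.58.1 on log2 nRPKM with 0.1 or with 1 added. A 2-fold minimum was also applied. Promoter stretches came from RefSeq on GRCm38.p6. Shared 50-base words were counted over annotated transcripts. Permutation tests used Python 3.11.15 with scipy 1.17.1.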

Additional observations from a re-analysis of the deposited data

Results flagged for a closer look

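In 5 of 48 gene and genotype groups examined, a single mouse stood apart from its group by Dixon's ratio, which is above 0.568 for 7 mice or 0.625 for 6. Chance flags about 1 in 20 groups. The PS2APP;Trem2wt female replicate 3 was highest for 3 genes, with Sulf2 at 18.5 nRPKM (next mouse 11.2), Sdc3 at 78.4 (next 39.0) and Gusb at 233 (next 183). Sulf1 was at 0.0597 nRPKM in PS2APP;Trem2wt replicate 5 (next 0.0218), a level near the limit of detection. Xylt1 was at 1.51 nRPKM in the PS2APP;Trem2ko male, replicate 5 (next 0.855).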

How the results depend on the processing

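Sulf2 and Cspg4 were called lower, and no member higher, in each of the 22 alternatives. For Cspg4 the log2 fold change was -3.75 on log2(nRPKM + 0.1) and -1.68 on log2(nRPKM + 1), scales that shrink changes of low genes by construction. On the same scales it was -2.70 and -1.11 for Hs3st1, and -1.43 and -0.32 for Chst3. Over all genes, the 262 lower became 530 with DESeq2, 173 with females only and 118 with a 2-fold minimum, and 191 to 284 with 1 mouse left out. The 86 higher became 332 with DESeq2, 53 without a filter and 9 with the 2-fold minimum, and 42 to 107 with 1 mouse left out. The lowest of these were 42 without PS2APP;Trem2ko replicate 1 and 47, 48, 53, 53 and 56 without PS2APP;Trem2wt replicates 4, 6, 2, 5 and 3. The 6 lower pathway genes became 9 with DESeq2, which added Cd44, Chst12 and Fgf1, and 3 with the 2-fold minimum. With 1 mouse left out they were 3 to 7, with 3 without PS2APP;Trem2ko replicate 2. Xylt1 lost its call without PS2APP;Trem2ko replicate 1, 2, 3, 4 or 6 or PS2APP;Trem2wt replicate 2 or 3, Chst3 without PS2APP;Trem2ko replicate 2, without PS2APP;Trem2wt replicate 2, 3, 5 or 6 and with females only, and Gusb without PS2APP;Trem2ko replicates 2 to 6 each, without PS2APP;Trem2wt replicate 1, 5, 6 or 7, with females only and without a filter. Members stayed at 2 lower and 0 higher with any mouse left out. The 4 genes that differed by sex became 36 with DESeq2, 7 within PS2APP;Trem2wt mice, and 2 to 6 with 1 mouse left out, 2 without PS2APP;Trem2ko replicate 5 or PS2APP;Trem2wt replicate 2 or 7. The cause of these shifts was not tested. No statement rests on the exact sign-flip permutation test of neighbours in the order of levels. It passed for 6 of 9 pairs in PS2APP;Trem2wt mice, for 4 over all 13 mice and for 0 with any 1 of the 7 left out. With 6 mice the smallest p of this test is 0.03125, so the drop to 0 cannot show that the order changed. The median log2 fold change of all genes was 0.004 with TMM and 0.006 with RLE scaling. No called gene changed sign. Among members not called, Vcan (-0.11) became 0.18 without PS2APP;Trem2wt replicate 2 and 0.02, 0.02 and 0.14 without PS2APP;Trem2ko replicates 1, 4 and 6, Sdc1 (-0.27) became 1.47 with voom+limma, and Cspg5 (0.05) was between -0.15 and -0.02 in 5 alternatives. Of the other genes named, none of them called, Agrn became 0.0346 and Pdgfb -0.0854 with females only, and with 1 mouse left out Ndst2 ranged from -0.0101 to 0.0853, Slc35b2 from -0.0473 to 0.00787 and Pdgfb from -0.0459 to 0.0424. No paired analysis was possible because the labels carry no replicate numbers and do not say which mice form a pair. Per the methods of the study, a mouse of each genotype was usually handled side by side up to the sort, and the fits here leave that pairing out. Counts of Sulf1 and Sdc1 fell to 0, and those of Vcan to 1, in at least 1 mouse, below the limit of detection, where depth limits what could be seen. Those of Hs3st1 and Chst3 fell to 3, at that limit.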
